A study of Mus musculus with 15 samples.

Results

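Cytosolic ribosomal protein genes were examined in large sensory neurons sorted from mouse dorsal root ganglia and measured on 15 Affymetrix whole-transcript microarrays. The members were all genes whose symbol is Rpl or Rps, a number and at most 1 letter a, x, y or l, together with Rpsa, Rplp0, Rplp1 and Rplp2, with pseudogene symbols and the S6 kinase genes left out. This gave 59 of the 19938 genes tested, 22 of the small subunit and 37 of the large subunit. All mice were C57BL/6 and carried a GFP reporter driven by the CGRP promoter, controls included. CGRP, calcitonin gene-related peptide, is made by many nociceptors. Neurons of lumbar ganglia 2 to 5 on the experimental side that were over 26.9 µm wide were sorted on this reporter and on fluorescent wheat germ agglutinin, a tracer given 5 days before death at the gastrocnemius muscle or the saphenous nerve, and 50 ng of RNA was amplified per sample. The groups, each with 3 biological replicates, were CFA paw and saline paw, which held CGRP-positive skin neurons, and CFA muscle, acid muscle and saline muscle, which held CGRP-negative muscle neurons. CFA is complete Freund's adjuvant, an oil emulsion with killed mycobacteria that inflames the injected tissue. Acid injection into muscle is used as a model of muscle pain, and saline was the control. The age and sex of the mice, the doses and the time after CFA or acid were not given in the sources used here. Paw and muscle groups differed at once in target tissue, CGRP status, injected site and tracer site, and these cannot be told apart.

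Ribosomal proteins and ribosomal RNA form the small subunit, which reads the messenger RNA, and the large subunit, which joins amino acids. The proteins are needed in nearly equal amounts, and their messenger RNAs are long-lived and abundant in most cells. Many of these messenger RNAs begin with a C and a run of pyrimidines, the terminal oligopyrimidine (TOP) motif, through which mTOR and LARP1 set their translation. In sensory neurons, part of the translation machinery lies in axons, where local protein synthesis after injury or inflammation has been studied as a step in nociceptor sensitization.

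The small subunit members were Rps2, Rps3, Rps4l, Rps4x, Rps6, Rps7, Rps9, Rps10, Rps12, Rps13, Rps14, Rps15, Rps15a, Rps18, Rps19, Rps20, Rps21, Rps25, Rps27l, Rps28, Rps29 and Rpsa. The large subunit members were Rpl3l, Rpl4, Rpl5, Rpl6, Rpl7, Rpl7a, Rpl8, Rpl9, Rpl10, Rpl10a, Rpl10l, Rpl12, Rpl13, Rpl14, Rpl19, Rpl21, Rpl22, Rpl23, Rpl23a, Rpl24, Rpl26, Rpl27, Rpl27a, Rpl28, Rpl29, Rpl30, Rpl32l, Rpl34, Rpl36, Rpl36a, Rpl37a, Rpl38, Rpl39l, Rpl41, Rplp0, Rplp1 and Rplp2. They were read by 215 probe sets that name 1 gene, 1 for each of 20 members and several for each of 39, up to 14 for Rps12, and the probe set with the highest mean was used for each gene. Another 16 symbols that fit the rule, among them Rpl3, Rpl11, Rpl39, Rps26 and Rps27, lay only on probe sets shared by several genes and were not analysed here. Processed pseudogene copies of ribosomal protein genes are common in the mouse genome, and probe sets that read such a copy and its parent cannot be told apart. No member was removed for a low level. Rpl3l, Rpl10l, Rpl12, Rpl30, Rpl32l and Rpl39l had mean levels at or under 2.45 on the log2 scale, the 95th percentile of 1190 olfactory and vomeronasal receptor genes, and the other 53 were above it.

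The start regions of 47 of the 59 members were matched to RefSeq on mouse build GRCm38.p6. The 30 bases around the first annotated start, 15 upstream and 15 from the start on, are given for members that the comparisons below turn on. Capitals mark the longest run of pyrimidines (C or T) in each window.
Rps6 (chr4:86857353-86857382, minus strand): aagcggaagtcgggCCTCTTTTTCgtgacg
Rps18 (chr17:33955651-33955680, minus strand): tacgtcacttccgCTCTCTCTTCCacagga
Rpl28 (chr7:4792950-4792979, plus strand): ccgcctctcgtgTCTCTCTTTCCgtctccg
Rpl38 (chr11:114668565-114668594, plus strand): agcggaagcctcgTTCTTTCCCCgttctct
Rplp2 (chr7:141447636-141447665, plus strand): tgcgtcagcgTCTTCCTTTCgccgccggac
Rps2 (chr17:24720048-24720077, plus strand): aggcagtcgagatctcgcgCTTCTTggagc
Rpl10a (chr17:28328456-28328485, plus strand): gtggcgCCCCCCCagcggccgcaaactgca
Rps12 (chr10:23787195-23787224, minus strand): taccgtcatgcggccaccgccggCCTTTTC
Rpl36a (chrX:134585639-134585668, plus strand): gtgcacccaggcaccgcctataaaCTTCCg
Rps28 (chr17:33824548-33824577, minus strand): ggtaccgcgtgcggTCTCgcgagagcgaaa
Rpl22 (chr4:152325711-152325740, plus strand): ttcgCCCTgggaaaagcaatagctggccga

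In Rps6, Rps18, Rpl28, Rpl38 and Rplp2 the run crosses the start, and the first transcribed base is a C followed by at least 4 pyrimidines, the form of a TOP motif. That form was found in 10 of the 47 members (21.3%), against 2.49% of the 27025 genes in the same table. A pyrimidine run of 8 or more bases within 25 bases of the start occurred in 42.6% of members and 19.4% of all genes. Over the 300 bases from 250 before to 50 after the start, the letters CCGGAAG on either strand, a core of ETS family sites, were present in 36.2% of members and 9.12% of all genes. GGGCGG, a GC box, was present in 55.3% and 35.9%, and TATAAA in 10.6% and 14.2%. Only the first annotated start was read, and a start a few bases away would change the first of these shares. The printed genes include both directions of the paw and muscle differences described below, with and without a run at the start.

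The labels of the samples were set against marker genes. The mean log2 level of 10 sensory neuron markers was 8.01 to 9.07 on the paw arrays and 7.07 to 8.28 on the muscle arrays. Calcb, Tac1 and Kit, the 3 measured of 5 markers of CGRP-positive neurons, averaged 6.24 to 7.77 on the paw arrays and 4.77 to 5.52 on the muscle arrays. Calca, which encodes the peptide behind the reporter, was not among the genes tested. Of 6 markers of large myelinated neurons and proprioceptors 5 were measured. They averaged 6.20 to 6.84 on the paw arrays and 5.44 to 6.54 on the muscle arrays. On the deposited values their mean was thus not lower in the CGRP-positive groups. Single markers differed, with 3 of 5 positive in CFA paw minus CFA muscle (lowest -0.66) and 5 of 5 in saline paw minus saline muscle. The 5 measured of 6 satellite glia markers averaged 6.08 to 7.06 on the paw arrays and 6.06 to 6.90 on the muscle arrays. The 4 measured of 6 Schwann cell markers averaged 5.30 to 5.55 on the paw arrays and 5.06 to 6.92 on the muscle arrays, and 4 endothelial markers averaged 2.58 to 3.28 and 3.03 to 4.23. Macrophage markers lay at 2.27 to 2.65 on all arrays, close to the level of the receptor genes. In such bulk samples, fewer cells of a type and less RNA per cell cannot be told apart.

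The arrays differed in their overall spread, and within some groups the members followed it. Between paw and muscle groups their medians did not. The mean SD was 1.70 in CFA paw and 1.43 in CFA muscle, with a mean member median of 6.39 in each. In saline paw and saline muscle the mean SD was 1.66 and 1.43, and the mean member median 6.20 and 6.24. The SD over the 19938 genes was 1.66 to 1.80 on 5 paw arrays and 1.28 to 1.55 on the 9 muscle arrays, with saline paw replicate 1 at 1.42. The median log2 level of the 59 members was 6.44, 6.36 and 6.36 in CFA paw, 5.65, 6.47 and 6.49 in saline paw, 6.52, 6.35 and 6.32 in CFA muscle, 6.54, 5.84 and 6.72 in acid muscle, and 6.43, 6.26 and 6.03 in saline muscle (replicates 1, 2 and 3). Saline paw replicate 1, acid muscle replicate 2 and saline muscle replicate 3 each had the lowest member median and the lowest spread of their group. In CFA muscle, replicate 1 had the lowest spread and the highest member median. Results that rest on the first 3 of these arrays are given with and without them. The within-group SD of a member was 0.42 at the median, against 0.23 over all genes.

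**Figure D1:**
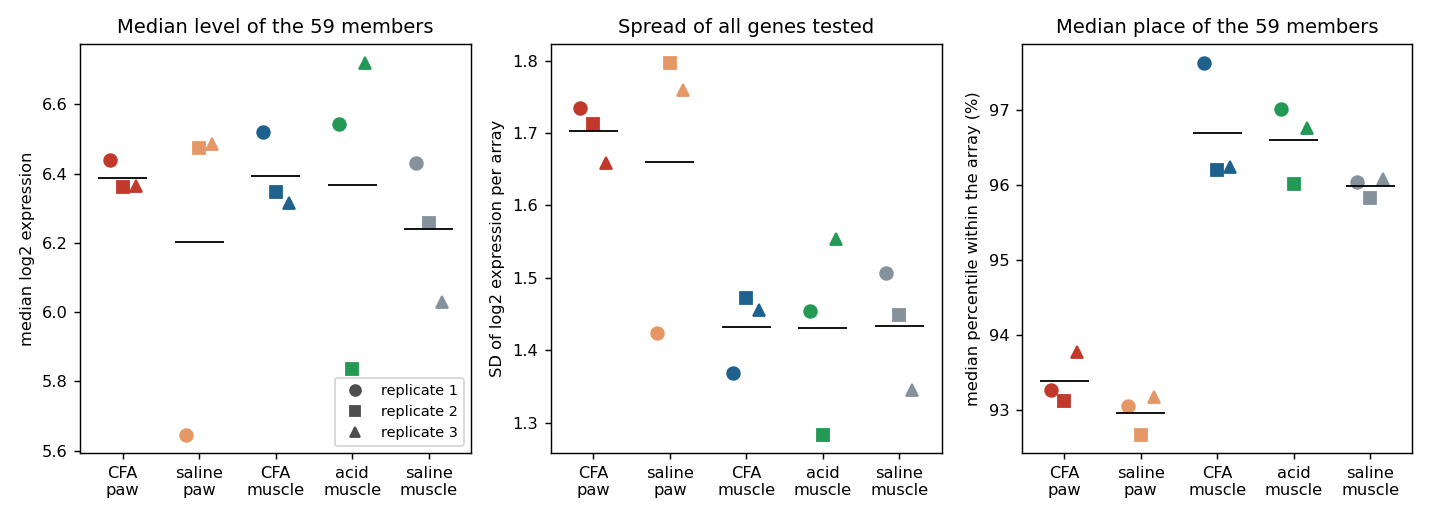
Left, the median log2 expression of the 59 members on each of the 15 arrays; middle, the SD of log2 expression over all 19938 genes; right, the median percentile of the members among all genes of the same array, in percent. Points are arrays and bars are means of 3; saline paw replicate 1 and acid muscle replicate 2 sit low in the left panel at 5.65 and 5.84, and in the right panel all 6 paw arrays, at 92.7 to 93.8%, lie below all 9 muscle arrays, at 95.8 to 97.6%.

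The members rose and fell together from array to array within groups. Over the 15 arrays, after the group means were taken off, the mean pairwise correlation between members was 0.40, and 0.53 among the 53 members above the receptor gene level. For 44 members the correlation with the median of the other members was above 0.5. Rps6, the substrate of S6 kinase, came highest at 0.98, with Rpl21, Rps12, Rpl34 and Rpl19 close to it. These are descriptions, since all members share the same arrays and the same spread.

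A few members did not follow the rest. The correlation with the others was -0.03 for Rpl22, a large subunit protein that also binds RNA outside the ribosome, -0.16 for Rps19 and 0.12 for Rps4l, a paralog of Rps4x. Rpl12, Rpl39l and Rpl3l, all at the level of the receptor genes, stood at -0.68, -0.57 and -0.51. Rpl38, whose loss in mice alters translation of Hox messenger RNAs, had the largest within-group SD (0.71), ahead of Rpl7 (0.70), Rps20 (0.62) and Rpl41 (0.58). Rps4l (0.16), Rpl32l (0.17), Rps14 (0.17) and Rpl39l (0.18) had the smallest.

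**Figure D2:**
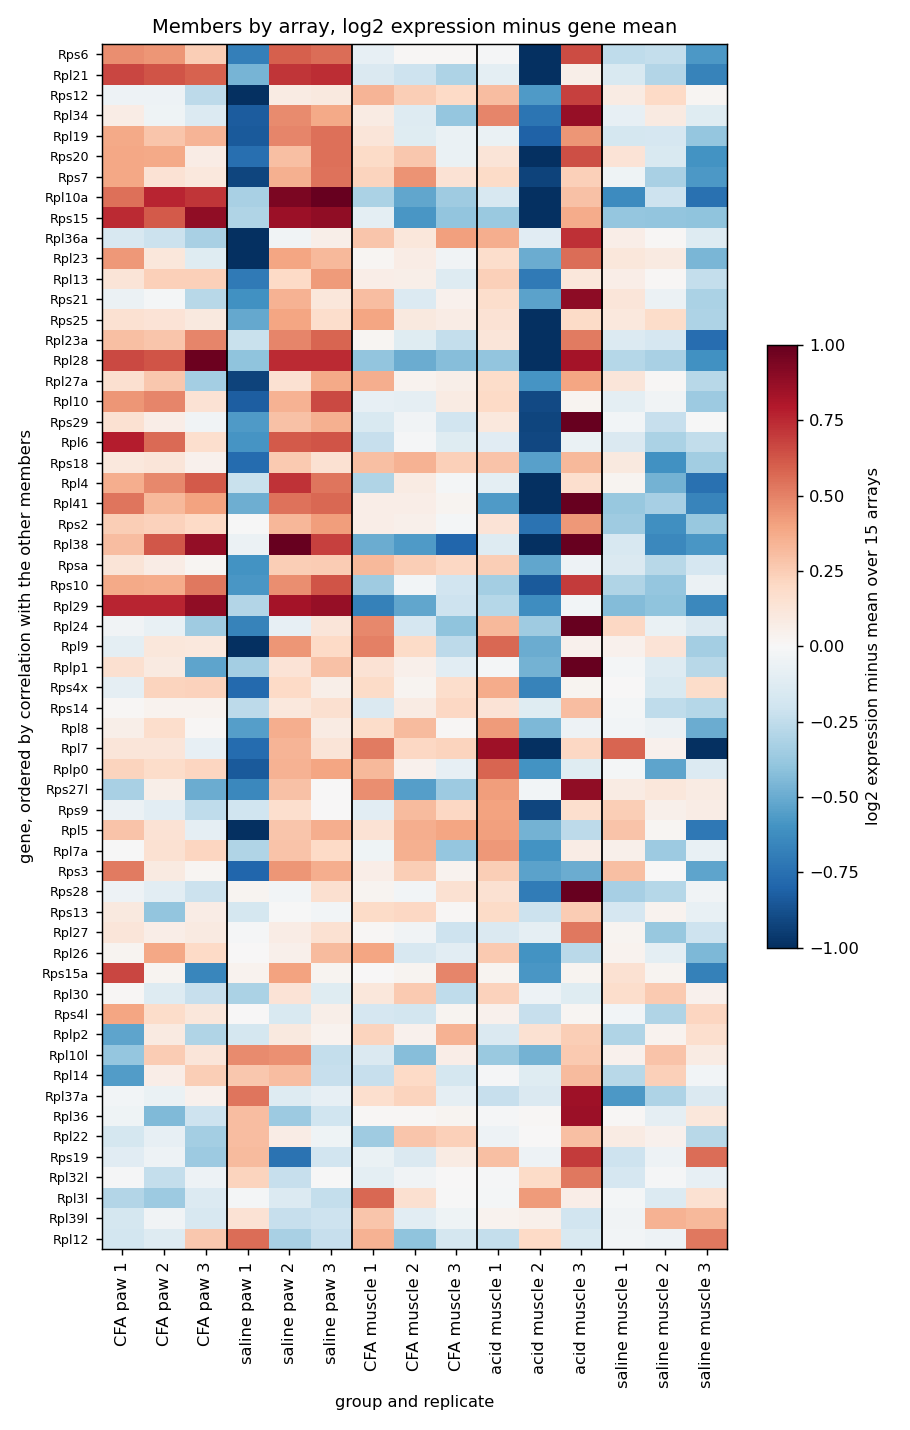
Log2 expression of each of the 59 members minus its mean over 15 arrays, with 1 column per array and genes ordered by their correlation with the other members. Saline paw replicate 1 and acid muscle replicate 2 are low for most members of the upper rows, and the lowest rows, with Rpl12, Rpl39l and Rpl3l, do not follow them.

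In muscle neurons, CFA went with small positive differences of most members, none of which passed the test. CFA muscle minus saline muscle gave a positive log2 difference for 46 of 59 members, against 47.1% of all genes, with a median of 0.15 over members and -0.012 over all genes. The median was 0.20 for small subunit and 0.13 for large subunit members. After limma's test across all genes with Benjamini-Hochberg adjustment, 0 members and 0% of the 19938 genes had an adjusted p under 0.05. At an unadjusted p under 0.05 there were 1 member and 518 genes (2.6%).

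Rps2, a small subunit protein beside the messenger RNA entry channel, was the 1 member with an unadjusted p under 0.05. Its log2 level was 7.58, 7.56 and 7.49 in CFA muscle, against 7.16, 6.90 and 7.13 in saline muscle. The CFA arrays lay above every saline array, and the difference was 0.48 (SE 0.225, adjusted p = 1.00 by limma). Rpsa, the laminin receptor of the small subunit, had 6.72, 6.64 and 6.60 in CFA muscle and 6.24, 6.11 and 6.22 in saline muscle. It showed the same separation with a difference of 0.46 (SE 0.216, adjusted p = 1.00 by limma). Rps18, in the head of the small subunit near the transfer RNAs, had 6.51, 6.56 and 6.45 in CFA muscle and 6.31, 5.61 and 5.86 in saline muscle. The difference was 0.58 (SE 0.272), and saline muscle replicate 1 came close to the CFA arrays. Rps7, which also binds Mdm2, had 7.13, 7.36 and 7.05 in CFA muscle and 6.86, 6.58 and 6.33 in saline muscle, a difference of 0.59 (SE 0.346).

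In 11 members all 3 CFA muscle arrays lay above all 3 saline muscle arrays, which held for 3.63% of all genes, and in 0 members all lay below (4.1% of all genes). Besides these 4 they were Rpl8, Rpl19, Rpl36a, Rpl37a, Rpl41, Rps6 and Rps28, with differences of 0.22 to 0.51. Rpl41, a very short large subunit peptide, had 7.37, 7.37 and 7.33 in CFA muscle and 6.92, 6.97 and 6.65 in saline muscle. Negative values were small or of dim genes, such as Rpl10l (-0.30, SE 0.240), Rps27l (-0.24, SE 0.292), Rpl12 (-0.23, SE 0.257) and Rpl39l (-0.17, SE 0.156). Without saline muscle replicate 3, the median over members was 0.074, with 42 positive differences, and 14 members were separated upward and 2 downward, against 9.75% and 10% of all genes. The difference of Rpl7 was 0.49 with that array and 0.0028 without it, since its level there was 4.95 against 6.67 and 6.14 in the other saline muscle arrays. Schwann cell markers moved the same way, with 4 of 4 measured genes positive and 0 past the threshold, at mean levels of 5.68 to 6.92 in CFA muscle and 5.49 to 6.19 in saline muscle. Fibroblast markers were positive in 5 of 5 (median 0.12) and endothelial markers in 3 of 4 (median 0.12). Sensory neuron markers mostly went the other way, with 2 of 10 positive (median -0.13). The part of these markers in the members' values was not tested.

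**Figure D3:**
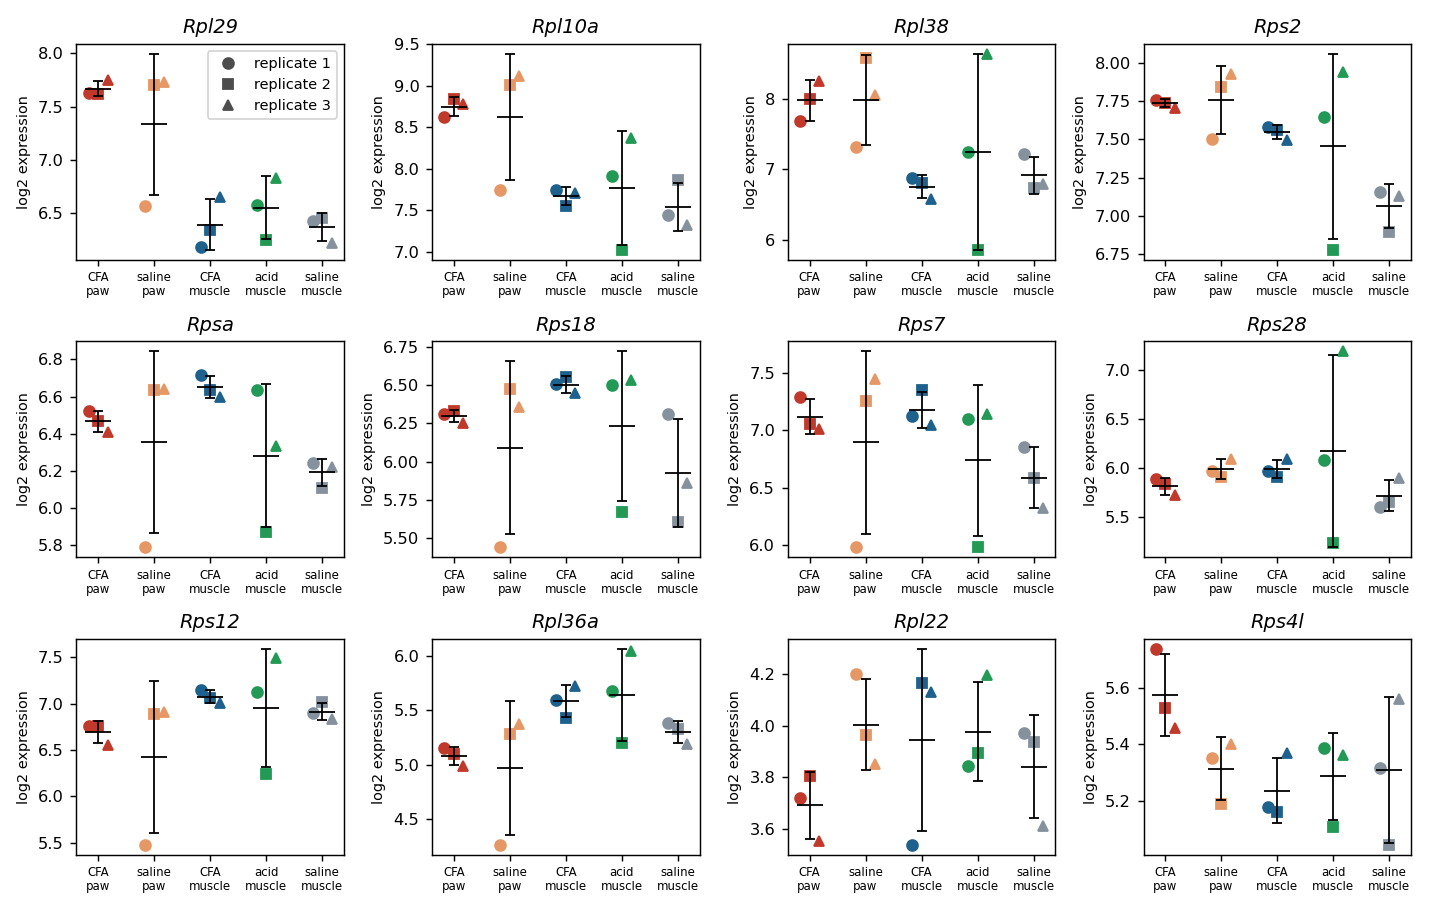
Log2 expression of 12 members on each array, in the order CFA paw, saline paw, CFA muscle, acid muscle and saline muscle, with 1 symbol per replicate number, and the group mean ± SD of 3 arrays. For Rpl29 all 3 CFA paw arrays, at 7.62 to 7.75, lie above all muscle arrays, while saline paw replicate 1, at 6.57, does not.

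Acid injection into muscle gave no member past the threshold either. Acid muscle minus saline muscle had a median of 0.13 over members and 0.016 over all genes, with 43 of 59 members positive, against 53.7% of all genes. At an adjusted p under 0.05 by limma there were 0 members and 0% of genes, and at an unadjusted p under 0.05 there were 0 members and 568 genes (2.85%). In 0 members did the groups separate, against 3.98% of all genes upward and 2.94% downward. Acid muscle replicate 2 was low for most members. Rps6 had 7.97, 6.84 and 8.64 in acid muscle and 7.72, 7.74 and 7.40 in saline muscle. Without acid muscle replicate 2, the median was 0.39, 54 members were positive, and 28 separated upward and 1 downward, against 8.65% and 7.86% of all genes, with 0 past the threshold. With acid muscle replicate 3 left out, the median was -0.076 with 21 positive, so the sign over the members rested on that array. It was 0.058 with 31 positive when acid muscle replicate 1 was left out. Without saline muscle replicate 3 the median was 0.082 with 35 positive, and 1 member separated upward (11.4% of all genes).

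The largest positive differences were those of Rpl37a, a zinc finger protein of the large subunit (0.50, SE 0.251), Rps28, at the messenger RNA exit (0.45, SE 0.323), Rps2 (0.39, SE 0.225) and Rpl24 (0.39, SE 0.330). Rps28 had 6.09, 5.24 and 7.19 in acid muscle and 5.60, 5.65 and 5.90 in saline muscle. Its acid arrays lay on both sides of the saline arrays, and the difference was 0.92 without acid muscle replicate 2 (adjusted p = 0.999 by limma). Rps2 had 7.65, 6.78 and 7.94 in acid muscle, and its difference without that array was 0.73 (SE 0.154, adjusted p = 0.999). The most negative were Rpl10l (-0.33, SE 0.240), Rps25, needed by some viral internal ribosome entry sites (-0.33, SE 0.332), Rpl39l (-0.24, SE 0.156) and Rps9 (-0.24, SE 0.256). Without acid muscle replicate 2 they were -0.19 for Rpl10l, 0.18 for Rps25, -0.29 for Rpl39l and 0.16 for Rps9, and Rpl24 was at 0.77. All 4 measured Schwann cell markers (median 0.29) and all 4 endothelial markers (median 0.16) were positive in acid muscle minus saline muscle. So were 4 of 5 fibroblast markers (median 0.11) and 4 of 10 sensory neuron markers (median -0.025). Of all these markers 0 passed the threshold, and their part in the members' values was not tested.

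CFA muscle and acid muscle share the saline muscle controls, so the values above stand side by side only. Compared with each other, CFA muscle minus acid muscle had a median of 0.076 over members and -0.027 over all genes, with 35 members positive (43.9% of all genes). By limma 0 members and 0% of genes had an adjusted p under 0.05, and 0 members and 626 genes (3.14%) an unadjusted p under 0.05. No member separated, against 2.92% of all genes upward and 5.23% downward. Rps25 (0.52, SE 0.332), Rps7 (0.44, SE 0.346), Rpl7 (0.41, SE 0.486) and Rpl5 (0.41, SE 0.356) had the largest positive values. Rps27l, a stress-induced paralog of Rps27 (-0.57, SE 0.292), Rpl38 (-0.49, SE 0.492), Rpl24 (-0.42, SE 0.330) and Rps19, mutated in human Diamond-Blackfan anaemia (-0.36, SE 0.260), had the most negative. Without acid muscle replicate 2 the first 4 were 0.021 for Rps25, 0.060 for Rps7, -0.21 for Rpl7 and 0.22 for Rpl5. The other 4 were then -0.80 for Rps27l, -1.19 for Rpl38, -0.80 for Rpl24 and -0.54 for Rps19, with adjusted p = 1.00 by limma for each. Without that array the median was -0.20, 11 members were positive, and 0 separated upward and 10 downward, against 8.49% and 11.2% of all genes. The sign of the comparison over the members therefore rested on that array.

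In skin neurons, CFA paw minus saline paw had a median of 0.11 over members and -0.011 over all genes, with 38 members positive (47.1% of all genes), and the median over members was -0.0087 after quantile normalization and -0.016 after cyclic loess. By limma 0 members and 0% of genes had an adjusted p under 0.05, and 0 members and 241 genes (1.21%) an unadjusted p under 0.05. All CFA paw arrays lay above all saline paw arrays for 1 member (1.73% of all genes) and below for 2 (2.99%). Without saline paw replicate 1 the median was -0.15, only 9 members were positive, and 4 separated upward and 22 downward, against 12.3% and 14.6% of all genes. Here too the direction over the members turned on 1 array.

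The 1 member that separated upward was Rps4l, with 5.74, 5.53 and 5.46 in CFA paw and 5.35, 5.19 and 5.40 in saline paw, a difference of 0.26 (SE 0.149). Rpl22 and Rps28 separated downward. Rpl22 had 3.72, 3.81 and 3.55 in CFA paw and 4.20, 3.96 and 3.85 in saline paw, a difference of -0.31 (SE 0.181). For Rps28 the levels were 5.89, 5.83 and 5.72 in CFA paw and 5.97, 5.91 and 6.10 in saline paw, a difference of -0.18 (SE 0.323). For Rps4l, Rpl22 and Rps28 the differences were 0.28, -0.22 and -0.19 without saline paw replicate 1. Leaving out an array cannot undo a separation, so the separation itself was not checked by this. The largest positive values were those of Rpl28 (0.39, SE 0.399), Rpl29 (0.33, SE 0.256), Rpl23 (0.30, SE 0.358) and Rpl21 (0.30, SE 0.309), and without that array Rpl28 stood at 0.0099 and Rpl29 at -0.050. After Rpl22 the most negative were Rpl10l (-0.23, SE 0.240), the stalk protein Rplp2 (-0.23, SE 0.180) and Rpl14 (-0.20, SE 0.224).

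Whether CFA acted differently in the muscle and skin neurons was tested as the CFA effect in muscle minus that in paw. By limma 0 members and 0% of genes had an adjusted p under 0.05, and 0 members and 325 genes (1.63%) an unadjusted p under 0.05. The median was 0.085 over members, with 34 positive (49.8% of all genes), and -0.0013 over all genes. Without saline muscle replicate 3 it was -0.027 and without saline paw replicate 1 it was 0.32. The largest values were those of Rpl37a (0.57), Rps2 (0.51), Rps15a (0.48) and Rplp2 (0.47), and the most negative those of Rpl28 (-0.43), Rps4l (-0.33), Rpl29 (-0.31) and Rps15 (-0.24). Without saline paw replicate 1 the last 4 were -0.042 for Rpl28, -0.35 for Rps4l, 0.075 for Rpl29 and 0.15 for Rps15, and Rpl37a was at 0.35. Without saline muscle replicate 3, Rps15a was at 0.22 and Rps4l at -0.21.

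**Figure D4:**
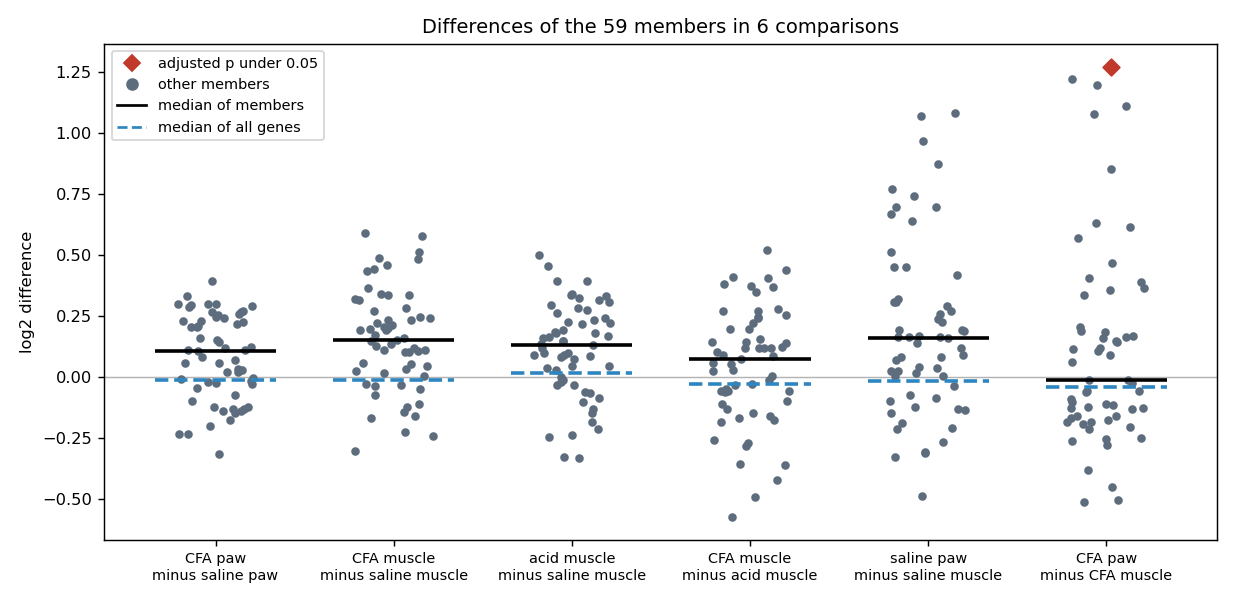
Log2 difference of each of the 59 members (points) in 6 comparisons, with the median over members (black line) and over all 19938 genes (dashed blue line). The diamond is Rpl29, at 1.27 in CFA paw minus CFA muscle, and the points of both comparisons of paw with muscle reach above 1, while those of the other 4 stay under 0.6.

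Between skin and muscle neurons the members spread widely, from -0.49 to 1.08 in saline paw minus saline muscle and from -0.51 to 1.27 in CFA paw minus CFA muscle. In the saline groups 0 members passed the threshold of limma's test, against 1.87% of all genes higher and 0.171% lower in paw (2.04% in either direction). In the CFA groups 1 member, Rpl29, was higher and 0 were lower, against 5.75% and 0.667% of all genes (6.41% in either direction). Unadjusted p was under 0.05 for 7 members (16.9% of all genes) in the saline groups and 9 (20.8%) in the CFA groups. The medians over members were 0.16, which turned to -0.27 after quantile normalization, and -0.012, over all genes -0.016 and -0.041, and 43 and 28 members were positive, against 47.7% and 43.8% of all genes. All paw arrays lay above all muscle arrays in 6 members of the saline comparison (8.11% of all genes) and 18 of the CFA comparison (18.9%), and below in 0 (7.06%) and 8 (17.1%).

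Rpl29, a large subunit protein first described as a heparin-binding surface protein, was the member that passed on the deposited values. Its log2 level was 7.63, 7.62 and 7.75 in CFA paw, against 6.19, 6.35 and 6.65 in CFA muscle, a difference of 1.27 (SE 0.256, 2.41-fold, adjusted p = 0.00952 by limma). In the saline groups it was 6.57, 7.70 and 7.74 in paw, against 6.43, 6.46 and 6.22 in muscle, a difference of 0.97 (SE 0.256, adjusted p = 0.0680). Its paw arrays lay above the muscle arrays in both comparisons, with saline paw replicate 1 only just above. Without saline paw replicate 1 the saline difference was 1.35 (adjusted p = 0.000244), and without saline muscle replicate 3 it was 0.89 (adjusted p = 0.224). Without CFA muscle replicate 1, 0 members passed in the CFA groups. Rpl29 was read by 1 probe set.

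Rpl38, Rpl10a, Rps15 and Rpl28 had values of similar size that did not pass on the deposited values with all arrays. Without saline paw replicate 1, Rpl10a (1.52, adjusted p = 0.00239), Rps15 (1.27, adjusted p = 0.0197) and Rpl28 (1.15, adjusted p = 0.0492) passed by limma in the saline groups. There 19.2% of all genes passed in either direction, and Rpl38 did not. With only the arrays compared, each of the named genes passed in the CFA groups, as did 16.1% of all genes. Rpl38 lay between 7.68 and 8.26 in CFA paw and between 6.58 and 6.88 in CFA muscle, a difference of 1.22 (SE 0.492, adjusted p = 0.169). In the saline groups it had 7.32, 8.57 and 8.06 in paw and 7.21, 6.73 and 6.80 in muscle, a difference of 1.07 (SE 0.492). Rpl38 separated in both comparisons, and its 4 probe sets gave differences from 1.07 to 1.19 in the saline groups. Such agreement did not hold for every member. Of 39 members with several probe sets, all had the same sign for 27 in the saline groups and 31 in the CFA groups. Among the 215 member probe sets, 12 held values identical to those of another, so agreement can be repetition. Rpl10a, of the mobile L1 stalk of the large subunit, had 7.75, 9.01 and 9.11 in saline paw and 7.44, 7.87 and 7.32 in saline muscle, a difference of 1.08 (SE 0.341, adjusted p = 0.122). The corresponding CFA levels were 8.62, 8.84 and 8.79 in paw and 7.75, 7.55 and 7.72 in muscle (1.08, SE 0.341, adjusted p = 0.0786). Saline paw replicate 1, at 7.75, lay below saline muscle replicate 2, so the saline groups of Rpl10a overlapped. Rps15, next to the decoding site, differed by 0.87 (SE 0.369, adjusted p = 0.242) and 1.11 (SE 0.369, adjusted p = 0.0928) in the saline and CFA groups. Rpl28 differed by 1.20 (SE 0.399, adjusted p = 0.0946) in the CFA groups, with 9.46, 9.44 and 9.79 in paw and 8.41, 8.31 and 8.38 in muscle. After quantile normalization the CFA differences were 0.012 for Rpl10a, -0.068 for Rps15 and -0.087 for Rpl28.

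At the other end stood Rps12 and Rpl36a, which lies near the exit site of the transfer RNA. Rpl36a had 5.15, 5.10 and 4.99 in CFA paw and 5.59, 5.43 and 5.73 in CFA muscle, a difference of -0.50 (SE 0.255, adjusted p = 0.279). In the saline groups it had 4.27, 5.28 and 5.37 in paw and 5.38, 5.33 and 5.19 in muscle, a difference of -0.33 (SE 0.255) that was 0.028 without saline paw replicate 1. Rps12 had 6.76, 6.76 and 6.55 in CFA paw and 7.15, 7.06 and 7.01 in CFA muscle, a difference of -0.38 (SE 0.337). Its saline levels were 5.48, 6.89 and 6.91 in paw and 6.89, 7.01 and 6.83 in muscle, a difference of -0.49 (SE 0.337) that was -0.011 without saline paw replicate 1. Both CFA comparisons were separated, and the saline comparisons overlapped. Rpl3l, the striated muscle paralog of Rpl3, differed by -0.51 (SE 0.166, adjusted p = 0.0868) in the CFA groups, at levels of 1.66 to 1.89 in paw and 2.02 to 2.60 in muscle that lie near those of the receptor genes. The remaining named values of the saline groups were -0.31 (SE 0.156) for Rpl39l and -0.31 (SE 0.260) for Rps19, and Rplp2 differed by -0.45 (SE 0.180) in the CFA groups.

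Because paw arrays had a wider spread than muscle arrays, the members were also placed by rank within each array. A gene's percentile among the 19938 genes of its array is not changed by rescaling the array. The median percentile of the members was 93.3, 93.1 and 93.8% in CFA paw and 93.1, 92.7 and 93.2% in saline paw. It was 97.6, 96.2 and 96.2% in CFA muscle, 97.0, 96.0 and 96.8% in acid muscle and 96.0, 95.8 and 96.1% in saline muscle. Every paw array, saline paw replicate 1 included, was thus below every muscle array. The mean percentile was lower in paw for 51 of 59 members. In 15 members all 6 paw arrays were below all 9 muscle arrays, which held for 1.33% of all genes, and in 0 members all were above (2.27% of all genes).

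These 15 were Rpl8, Rpl9, Rpl10, Rpl13, Rpl19, Rpl23, Rpl24, Rpl27a, Rpl34, Rpl36a, Rplp1, Rps12, Rps21, Rps29 and Rpsa. Rps12 lay between the 91.6 and 95.3 percentile on paw arrays and between 97.6 and 98.8 on muscle arrays. Rpl36a lay between 74.3 and 84.4 on paw arrays and between 89.0 and 93.7 on muscle arrays. For Rpsa the ranges were 93.4 to 94.1 and 95.1 to 98.1. Rpl29 was among the 8 members with a higher mean percentile in paw, at 97.8 against 96.9. The other 7 were Rpl10a, Rpl10l, Rpl12, Rpl32l, Rpl38, Rps15 and Rps15a.

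Scalings that remove the difference in spread moved the medians over the members downward, and in the saline groups turned their sign. In CFA paw minus CFA muscle the median was -0.54 after quantile normalization, -0.57 after cyclic loess and -0.50 with array SD as covariate, and in saline paw minus saline muscle it was -0.27, -0.28 and -0.25. After these steps 0 members were higher at an adjusted p under 0.05 by limma. In the CFA groups 16, 19 and 8 members were lower, against 1.09%, 1.46% and 1.06% of all genes, and in the saline groups 3, 4 and 3, against 0.662%, 0.808% and 1.03%. Setting the array medians equal left the spread in place and gave 0.073 in the CFA groups and 0.20 in the saline groups, with 1 member higher (5.42% of all genes) and 0 (0.903%).

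Rps12, Rpl36a and Rpl23 were lower in paw under all 3 of these scalings in both comparisons. In the CFA groups, after quantile normalization, Rps12 differed by -1.14 (SE 0.179, adjusted p = 0.00240), Rpl36a by -0.94 (SE 0.172, adjusted p = 0.00663) and Rpl23 by -0.68 (SE 0.163, adjusted p = 0.0327). The first 2 were negative on the deposited values too, while Rpl23 was at 0.12. Rplp1, an acidic protein of the stalk, differed by -1.09 (SE 0.202, adjusted p = 0.00700) and Rpsa by -0.88 (SE 0.157, adjusted p = 0.00545) after quantile normalization, and neither passed with the SD as a covariate. Rpl29 stayed positive under each scaling, at 0.44, 0.45 and 0.56 in the CFA groups after quantile normalization, cyclic loess and the covariate. It no longer passed there (adjusted p = 0.0800, 0.0753 and 0.125), and it passed with the array medians set equal (1.36, adjusted p = 0.0161).

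**Figure D5:**
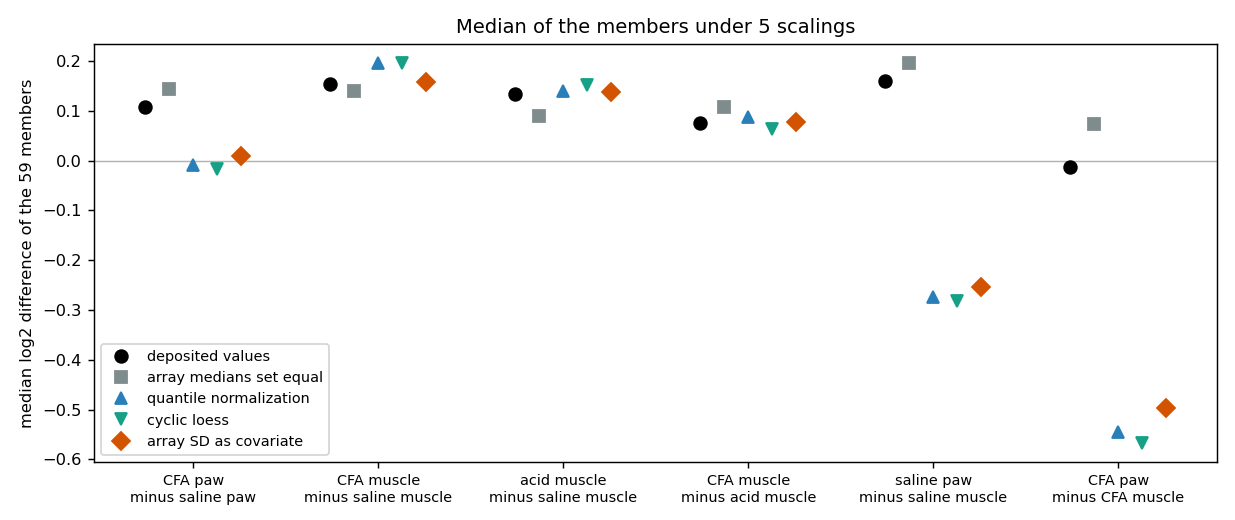
Median log2 difference of the 59 members in 6 comparisons under 5 scalings of the same arrays. In both comparisons of paw with muscle the quantile, loess and covariate values lie at -0.25 to -0.57 while the deposited values lie at 0.16 and -0.012; in the 3 comparisons among muscle groups all 5 scalings give values above 0.

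Neuronal markers and Schwann cell markers moved between paw and muscle as well. Of 10 sensory neuron markers 7 were higher in CFA paw than in CFA muscle by limma (5.75% of all genes) and 3 in saline paw than in saline muscle (1.87%). Their medians were 1.42 and 1.15, and 0.37 and 0.11 after quantile normalization. Of 4 Schwann cell markers 2 were lower in CFA paw than in CFA muscle (0.667% of all genes), with a median of -1.10. In the saline groups 0 of these 4 passed (median -0.50). Satellite glia markers went the other way, with 4 of 5 positive in each comparison, medians of 0.51 (CFA) and 0.27 (saline), and 0 past the threshold. The part of these markers in the members' values was not tested.

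By place in the ribosome, no group of members had a gene past the threshold on the deposited values other than Rpl29. The stalk, which recruits the elongation factors, had Rplp0 at 7.37, 7.33 and 7.36 in CFA paw, 6.31, 7.50 and 7.54 in saline paw, 7.47, 7.19 and 7.06 in CFA muscle, 7.73, 6.55 and 7.02 in acid muscle, and 7.13, 6.62 and 7.01 in saline muscle. All 3 stalk genes were positive in CFA muscle minus saline muscle, with 0.32 (SE 0.314) for Rplp0, 0.17 (SE 0.302) for Rplp1 and 0.24 (SE 0.180) for Rplp2. Of 6 small subunit proteins lining the messenger RNA channel 5 were measured, Rps2, Rps3, Rps14, Rps28 and Rpsa. All 5 were positive in CFA muscle minus saline muscle (median 0.27), and 2 of 5 in CFA paw minus CFA muscle (median -0.022). Of 8 proteins around the peptide exit tunnel 4 were measured, Rpl19, Rpl22, Rpl23a and Rpl26, and all 4 were positive in CFA muscle minus saline muscle (median 0.22).

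Rpl5 binds 5S ribosomal RNA and, when free, the p53 regulator Mdm2. Its levels were 6.74, 6.60 and 6.36 in CFA paw, 5.30, 6.73 and 6.81 in saline paw, 6.60, 6.81 and 6.84 in CFA muscle, 6.86, 5.98 and 6.19 in acid muscle, and 6.74, 6.47 and 5.74 in saline muscle. Saline paw replicate 1 and saline muscle replicate 3 were the 2 lowest. Rpl10, which completes the large subunit at the last step of its maturation, differed by 0.39 (SE 0.326) between CFA paw and CFA muscle and by 0.14 (SE 0.326) between CFA muscle and saline muscle. Rps3, at the channel entry and also a DNA repair factor, differed by 0.20 (SE 0.311) between CFA muscle and saline muscle, and the X-linked Rps4x by 0.12 (SE 0.261). The 5 paralogs with restricted or stress-linked expression (Rpl3l, Rpl10l, Rpl39l, Rps4l and Rps27l) had a median of -0.13 in saline paw minus saline muscle and -0.11 in CFA paw minus CFA muscle, with 0 past the threshold.

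Genes that act with the ribosome were read on the same arrays. Of 9 ribosome-linked genes outside the symbol rule 3 were measured and 0 passed in any comparison. Fau, which encodes Rps30 fused to a ubiquitin-like protein, averaged 7.11 ± 0.11 in CFA paw and 6.49 ± 0.05 in CFA muscle (SD, n = 3 each), a difference of 0.62 (SE 0.218, adjusted p = 0.113 by limma). In the 4 comparisons within paw or within muscle, 0 of 32 measured translation factors, 0 of 40 ribosome biogenesis genes, 0 of 17 genes that control TOP messenger RNAs, 0 of 77 mitochondrial ribosomal protein genes and 0 of 11 small nucleolar RNAs from member introns passed. The translation factor with the smallest p in CFA muscle minus saline muscle was Eif3m, an initiation factor subunit, at 5.25 ± 0.39 in CFA muscle and 4.37 ± 0.41 in saline muscle (SD, n = 3 each; difference 0.87, SE 0.328). Among biogenesis genes it was Nhp2, a protein of the RNA particles that guide pseudouridylation, with a difference of 0.25 (SE 0.120). Mitochondrial ribosomal proteins are made in the cytosol for a separate ribosome. In CFA muscle minus saline muscle their median was -0.060 with 30 of 77 positive, against 0.15 with 46 of 59 for the cytosolic members. Translation factors had 0.12 with 23 of 32 positive, biogenesis genes 0.091 with 29 of 40, and the small nucleolar RNAs 0.24 with 9 of 11. For genes that control TOP messenger RNAs it was -0.026 with 8 of 17. A lean upward was thus not particular to the members.

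Between skin and muscle neurons some of these genes did pass. Of 32 translation factors 2 were higher in saline paw than in saline muscle, against 1.87% of all genes, and 3 in CFA paw than in CFA muscle, against 5.75%. Eif5a, a hypusine-bearing factor that helps stalled ribosomes, averaged 8.69 ± 0.38 in saline paw and 7.39 ± 0.10 in saline muscle (SD, n = 3 each), a difference of 1.30 (SE 0.208, adjusted p = 0.00710), and 1.20 (SE 0.208, adjusted p = 0.00411) in the CFA groups. Eef1a1, which brings transfer RNA to the ribosome, differed by 1.31 (SE 0.313, adjusted p = 0.0460) and 1.20 (SE 0.313, adjusted p = 0.0333). Its neuronal and muscle form Eef1a2 differed by 1.68 (SE 0.306, adjusted p = 0.00533) in the CFA groups. After quantile normalization none of these 3 passed, and the median of the list was -0.12 and -0.17, against 0.40 and 0.41 on the deposited values.

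Among genes that control TOP messenger RNAs 3 of 17 were higher in CFA paw than in CFA muscle, beside the same 5.75% of all genes. Myc, a transcription factor that raises ribosome production, averaged 5.72 ± 0.09 in CFA paw and 3.43 ± 0.26 in CFA muscle (SD, n = 3 each), a difference of 2.29 (SE 0.363, adjusted p = 0.00254). It kept a difference of 1.98 (adjusted p = 0.00277) after quantile normalization and 1.57 (adjusted p = 0.0394) with the SD as a covariate. Rptor, the mTOR complex subunit raptor, differed by 1.49 (SE 0.273, adjusted p = 0.00545) and by 1.37 (adjusted p = 0.00561) after quantile normalization, and did not pass with the covariate (0.75, adjusted p = 0.0600). Larp1, which binds TOP messenger RNAs, differed by 1.18 (SE 0.242, adjusted p = 0.0103) and by 0.33 (adjusted p = 0.278) after quantile normalization. In the saline groups Myc differed by 1.47 (SE 0.363, adjusted p = 0.0530), and 0 of the 17 passed. Of the mitochondrial ribosomal proteins Mrpl44 was lower in CFA paw than in CFA muscle (-0.64, SE 0.171, adjusted p = 0.0370). Of 11 small nucleolar RNAs 1, Snora3, was higher (0.55, SE 0.151, adjusted p = 0.0427), against 5.75% of all genes. Another, Snord38a, was lower (-0.55, SE 0.147, adjusted p = 0.0388), against 0.667%. Both were at mean levels of 2.24 and below.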

How the data were processed

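Expression was measured on 15 1-colour Affymetrix arrays. The authors deposited 1 normalized log2 value for each probe set and array. RMA and Partek are named, per the submitters' processing notes, without versions or parameters. No source used here gives the log base, which was read from the value range, and no further scaling was applied. Of 35556 probe sets, 23410 are annotated, 21789 to a single gene symbol and 1621 to more than 1. For the 999 genes with over 1 probe set, the one with the highest mean was used.

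Group means (5) were estimated over all arrays together with limma 3.58.1 in R 4.3.3 (10 residual degrees of freedom, prior 4.32), with Benjamini-Hochberg adjustment over 19938 genes, a threshold of 0.05 and two-sided tests. The procedure was also tried on simulated data in which each gene had independent noise. Those data had no shared array effects, so the trial does not show how the test behaves here. SE is that of the log2 difference. Depth has no meaning for arrays, and 3 arrays per group limit the precision. The labels call the replicates biological. Same-numbered replicates did not deviate together (correlations from -0.50 to 0.25), so no block was used.

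The members, gene lists and tests were chosen with earlier results of these data known. Named members are those past the threshold, the 4 most positive and 4 most negative of each comparison, the 4 largest and 4 smallest within-group SDs, and a fixed set of stalk, channel and paralog genes. Others, such as Rpl36a in the saline groups and members counted as separated or lower under a scaling, were chosen after their values were seen. Start regions come from RefSeq. Alternatives were 4 scalings, weights, a variance prior, a filter on dim genes, other probe sets, only the arrays compared, a replicate block and each array left out.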

Additional observations from a re-analysis of the deposited data

Results flagged for a closer look

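The group means of Rps28 differed with CFA in opposite directions in paw and muscle groups, by small amounts. All CFA paw arrays lay below all saline paw arrays, as for 2.99% of all genes. All CFA muscle arrays lay above all saline muscle arrays, as for 3.63% of all genes. The CFA effect was 0.27 in muscle and -0.18 in paw, each smaller than its SE. The difference between these effects was 0.45 (SE 0.456; adjusted p = 1.00 by limma), so the test of the difference itself did not pass. Leaving out an array cannot undo such a separation, so that step was no check on it.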

How the results depend on the processing

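Of 264 values under alternatives, 234 were counted as kept and 30 as moved. A median was kept when it shifted by less than 0.32, the SD of member medians within groups, and a count when it stayed equal or nearly so. That limit is larger than every median on the deposited values, so a median that changed sign could count as kept. CFA paw minus saline paw without saline paw replicate 1 (-0.15) was such a case. Outside the comparisons of paw with muscle, the called counts were 0 under every setting. The comparisons of paw with muscle moved most. Members called in saline paw minus saline muscle, 0 on the deposited values, were 3 after quantile normalization, 4 after cyclic loess and 3 once array SD entered the model, all lower in paw. They were 23 with array weights (22 higher, 1 lower; 37% of all genes), 1 with dim genes left out (Rpl29, higher; 4.21%), 0 to 9 with each array left out (9 higher without saline paw replicate 1; 19.2%) and 16 without the 3 arrays of low spread, an alternative chosen after seeing the data (all higher; 16.9%). In CFA paw minus CFA muscle, 1 on the deposited values, they were 16, 19 and 8 under the first 3, all lower. They were 9 with array weights (7 higher, 2 lower; 20.3%), 12 with only the arrays compared (11 higher, 1 lower; 16.1%), 0 to 1 with each array left out and 12 without the 3 arrays (9 higher, 3 lower; 18.6%). The medians under the first 3 were -0.27, -0.28 and -0.25 for the saline groups and -0.54, -0.57 and -0.50 for the CFA groups. The scalings are built to remove the spread between arrays; the cause of the other shifts was not tested.

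Counts of separated members, compared after seeing the data, moved when 1 array was left out, where separation is easier. Without saline paw replicate 1 they were 4 up and 22 down in CFA paw minus saline paw and 35 up and 4 down in saline paw minus saline muscle, where 27% and 28.3% of all genes were separated. Without acid muscle replicate 2 they were 28 up and 1 down in acid muscle minus saline muscle and 10 down in CFA muscle minus acid muscle. Without saline muscle replicate 3 they were 14 up and 2 down in CFA muscle minus saline muscle, 1 up in acid muscle minus saline muscle, and 6 up and 1 down in saline paw minus saline muscle (11.5% and 9.8% of all genes). A replicate block left 0 members called in saline paw minus saline muscle and 1 in CFA paw minus CFA muscle, with medians of 0.16 and -0.012, and changed no other call; the numbers do not pair the samples. All genes called were 316 and 1144 with the block, against 407 and 1279. Dim genes limit Rpl3l, Rpl10l, Rpl12, Rpl30, Rpl32l and Rpl39l.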
